A study of Drosophila melanogaster with 4 samples.

Results

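The regions described here are the clusters of elongating RNA polymerase II on the X chromosome of a male *Drosophila melanogaster* cell line. All clusters placed on X in the list of the whole replicate set were taken, whatever their width or score, which gave 1196 of 5826 clusters, or 20.5% of that list. Of these, 1195 are named as enriched and 1 as depleted, and the layout below is that of the 1195. The clusters on the 4 large autosomal arms, 2L, 2R, 3L and 3R, serve as background with 4351 enriched clusters.

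The study profiled chromatin of CME-W1-Cl.8+ (Clone 8) cells, a line derived from the larval wing (dorsal mesothoracic) disc at the third instar, labelled male. Immunoprecipitation used the antibody ab5095 against the phosphorylated serine 2 of the repeats in the carboxy-terminal domain of RNA polymerase II. The 4 samples are 2 ChIP libraries, called replicates 1 and 2, and 2 inputs; no genotype or treatment sets the samples apart. Separate cultures are not mentioned in the labels for the replicates, and the spread between these libraries may therefore be technical only. A line of this kind stands for 1 clone, and its number of X copies was not tested.

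Phosphorylation of serine 2 marks polymerase that has left the promoter and is elongating through the body of a gene, so clusters of this mark tend to trace transcribed gene bodies. Males of *Drosophila* have a single X, and the male-specific lethal complex, with its roX RNAs, spreads over active X genes, acetylates histone H4 there and raises their transcription towards the output of the paired X chromosomes of females. Active genes of flies often lie close together, separated by stretches with few active genes.

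The clusters come from 3 lists, 1 for each ChIP library and 1 for the whole replicate set. The last of these is named the combined list here; how the libraries were joined in it is not stated, and it has no SD. Replicate 1 held 1079 X clusters, replicate 2 held 1029, and neither list named a depleted cluster on X. Scores are those the authors gave their clusters, read as a log2 enrichment whose reference is not stated. Sequencing depth is unknown for these lists, and intervals on shares (exact binomial, 95%) cover counting error over clusters only. Positions are those of FlyBase release 5. No cluster is assigned to a gene, because no gene annotation of that release was given and positions were not converted to another.

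The X clusters lay along almost the full arm, which is 22.4 Mb long, and were unevenly spaced. In the combined list they came to 53.3 clusters per Mb and covered 23.7% of the arm, with 18.8% covered in replicate 1 and 19.7% in replicate 2. The first combined cluster began at base 17928 and the last ended at base 22416527, 6300 bp from the end of the sequence. The lists parted at the tip: the first replicate clusters began at 139036 and 139017, and the 2 combined clusters before them, both at most 2002 bp wide and with log2 enrichment between 0.41 and 0.94, overlapped neither replicate. At the proximal end the lists stopped close together, at 22416650 in replicate 1 and 22416382 in replicate 2.

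Cover varied several-fold along X, and the replicates drew the same profile. Over 44 full bins of 500 kb, cover in the combined list ran from 6.58% to 45.4% with a median of 23.0%. The range was 5.03% to 35.4% in replicate 1, and replicate 2 spanned 5.13% to 37.2%. Across 224 bins of 100 kb, Pearson's r and Spearman's rho between the cover of replicates 1 and 2 were both 0.986; these bins come from 2 libraries and share neighbours, so no p is given.

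**Figure D1:**
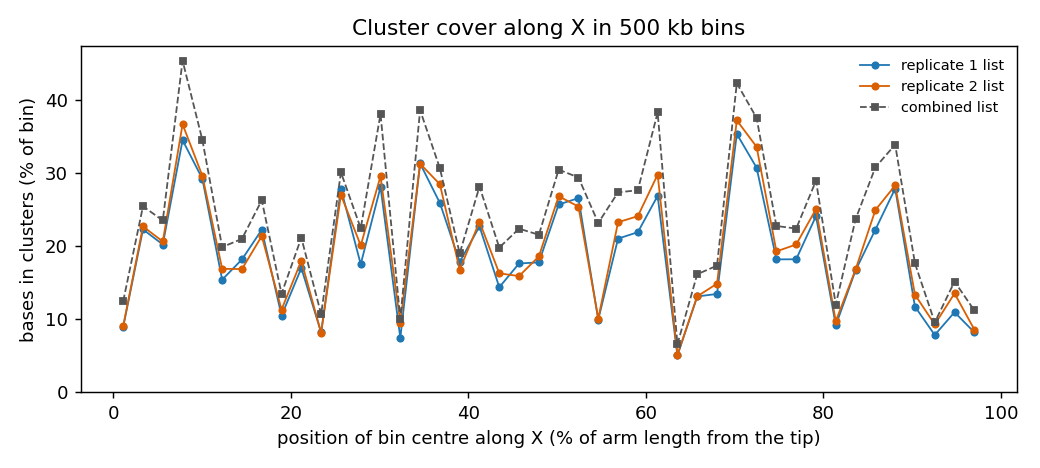
Cover of X by clusters in each full 500 kb bin (percent of bases in the bin) against the position of the bin along the arm (percent of its length from the tip); lines join the bins of each list. The replicate curves lie close together from the tip to the proximal end. The combined list lies above both and exceeds their mean by a median of 3.69 percentage points. Its largest excess over that mean, 13.2 points, lies just past the middle of the arm.

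The 4 densest full bins of the combined list lay apart from each other along X. The bin from 1500001 to 2000000 held 44 combined clusters, which covered 45.4% of it, with 34.5% covered in replicate 1 and 36.7% in replicate 2. The bin from 15500001 to 16000000 had 42.3%, 35.4% and 37.2% in the same lists, so by the replicates it was the densest. The bins from 7500001 to 8000000 (38.6% in the combined list) and from 13500001 to 14000000 (38.3%) followed. The latter had 26.9% in replicate 1 and 29.8% in replicate 2. In both replicates the bin from 16000001 to 16500000 ranked above it, with 30.7% and 33.6%, and it adjoined the bin from 15500001. The densest bin by the replicates thus had a dense neighbour. Of the 4 sparsest bins of the combined list, 2 adjoined one of its 4 densest. The sparsest full bin, from 14000001 to 14500000, adjoined the bin from 13500001. It had 6.58% in the combined list (5.03% and 5.13% in replicates 1 and 2). Likewise the bin from 7000001 to 7500000, at 10.0% in the combined list, adjoined the dense bin from 7500001. The other sparse bins lay from 20500001 to 21000000 (9.56%) and from 5000001 to 5500000 (10.7%).

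Bins with few clusters differed in how strong these were. The bin from 20500001 to 21000000 had the fewest combined clusters of any full bin, 7, yet their median log2 enrichment of 1.54 was close to the 1.56 of X clusters of 10 kb or more. The other 3 of the sparsest bins, from 14000001, 7000001 and 5000001, had medians of 0.58, 0.81 and 0.51. In the dense bins from 1500001, 15500001, 7500001 and 13500001 the medians were 0.65, 0.90, 0.82 and 0.61. Counted per part, the 5 equal parts of X from tip to proximal end were covered to 24.7%, 24.2%, 26.0%, 25.5% and 18.2% in the combined list. The last of them was also the lowest in replicate 1, at 13.6% against 19.9% to 20.3% in the other parts, and in replicate 2, at 14.7% against 20.6% to 21.7%. Within it, the last 2 Mb had 7.77% in replicate 1 and 8.83% in replicate 2. Pericentric regions of fly chromosomes are rich in repeats, and whether reads could be aligned throughout this end was not tested.

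Stretches of 50 kb or more without any combined cluster numbered 95 on X and made up 9.21 Mb, 41.1% of the arm. Their median length was 79.8 kb, and 35 of them reached 100 kb. No cluster of replicate 1 or replicate 2 lay wholly inside any of the 95, but 53 clusters of replicate 1 and 24 of replicate 2 reached into one from its edge, and 33 of the 95 had no base of either. Per Mb, X had 4.24 such stretches, against 4.22 on 2L, 3.97 on 2R, 4.60 on 3L and 4.80 on 3R. Their share of the arm was 46.1% in replicate 1 and 47.0% in replicate 2 on X, against 47.1% and 48.3% on the autosomal arms together. The difference of -1.14 ± 0.17 percentage points (SD, n = 2) exceeded its own spread between replicates. However, X lay between the autosomal arms, which had 40.1% to 50.6% in replicate 1 and 40.7% to 52.3% in replicate 2. The longest stretches of X were shorter than those of 2L (472 kb) and 3L (498 kb) and longer than those of 2R (256 kb) and 3R (268 kb).

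The longest empty stretch of X ran for 366 kb from 20529704 to 20895951. It was bounded by clusters with log2 enrichment of 1.69 and 1.54, and the matching stretches of the replicates measured 368 and 367 kb. The next ran for 276 kb from 21569304 to 21845722. It measured 344 kb in each replicate, as the cluster at its left edge was found in neither. The third ran for 247 kb from 19802691 to 20050073 (249 and 247 kb in replicates 1 and 2). The 3 longest thus all lay in the last of the 5 parts of X, of which empty stretches made up 52.0%. The fourth, of 229 kb from 14147426 to 14376609, lies within the sparsest bin; it measured 234 kb in replicate 1 and 330 kb in replicate 2, as the cluster at its right edge was found in replicate 1 only. The fifth lay from 11923909 to 12096532 (173 kb), the sixth from 17806532 to 17971291 (165 kb), the seventh from 11059792 to 11218210 (158 kb) and the eighth from 12820819 to 12972571 (152 kb). Several of these began or ended at weak, narrow clusters, but that at 11923909 was bounded on both sides by wide ones, of 16488 bp and 24695 bp.

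A few X clusters stood far from all others. The loneliest, at 20526420 to 20529703, had its nearer neighbour 129898 bp away, with a log2 enrichment of 1.69 by the combined list and of 1.80 and 1.62 by replicates 1 and 2. The cluster at 22101233 to 22103885, with 109983 bp to its nearer neighbour, was stronger still, at 2.58, 2.78 and 2.39 by the same lists. Both were thus well above the median of X clusters, 0.78 in the combined list. The third and the fourth loneliest, at 14376610 to 14378463 and 5087827 to 5089683, were weak (0.29 and 0.26) and were found in replicate 1 only. The fifth, at 7312049 to 7315691, had 0.57 by the combined list, with 0.77 and 0.65 by replicates 1 and 2.

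Most gaps on X were far shorter than the mean gap. The median gap between neighbouring clusters in the combined list was 3465.5 bp and the mean 14.3 kb, since the 95 longest gaps, 7.96% of all, held 53.9% of the gap length. The median gap was 4390.5 bp in replicate 1 and 4483.5 bp in replicate 2 on X, against 6310 bp and 5993.5 bp on the autosomal arms. The difference, X minus arms, was -1714.75 ± 289.6 bp (SD, n = 2), larger than the spread between replicates, and the X median was lower than that of each of the 4 arms in each replicate. The difference sat in the short gaps: gaps under 1 kb made up 19.9% and 21.9% of X gaps in replicates 1 and 2, against 15.4% and 16.8% on the autosomal arms. In the range from 20 to 50 kb the order was the other way, with 11.2% and 11.4% on X, against 15.1% and 14.7%. With 2 libraries and 1 X chromosome, no test of X against the arms was made here or below.

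**Figure D2:**
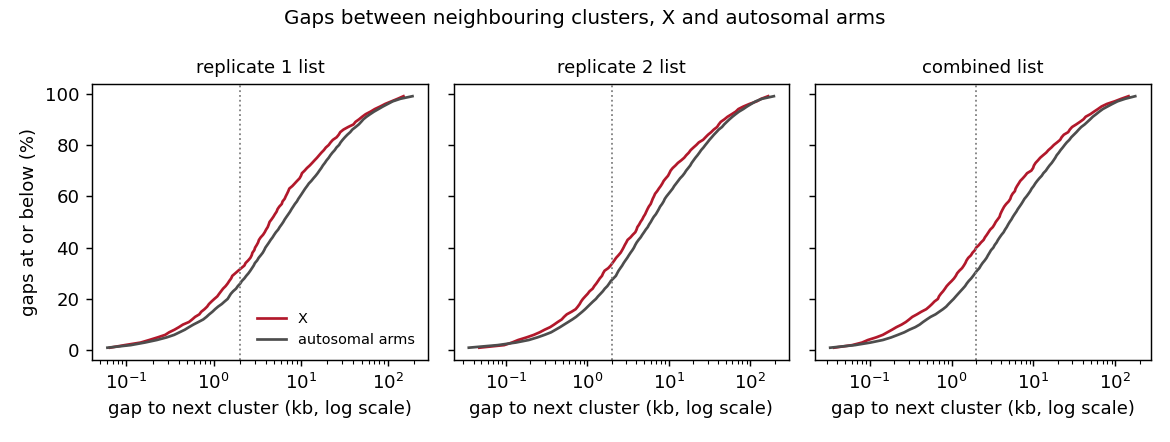
Cumulative share of gaps (percent of gaps at or below a length) against gap length in kb on a log axis, for X and for the autosomal arms together, 1 panel per list; the dotted line marks 2 kb. In each list the X curve lies above and to the left over most of its length, with medians of 4390.5, 4483.5 and 3465.5 bp on X in replicate 1, replicate 2 and the combined list, against 6310, 5993.5 and 5125 bp on the autosomal arms.

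Close clusters on X came in runs. A run is here a series of clusters in which each gap is at most 2 kb. In the combined list 720 of the 1195 X clusters (60.3%) belonged to 242 runs of 2 or more, and 475 stood alone; over X and the 4 arms together, 52.5% of clusters had a neighbour this close. On X the share was 51.5% in replicate 1 and 54.3% in replicate 2, against 43.9% and 45.7% on the autosomal arms. The difference of 8.13 ± 0.695 percentage points (SD, n = 2) exceeded the spread between replicates, and X lay above the highest single arm in each, which had 46.4% in replicate 1 and 47.4% in replicate 2. With combined clusters found in both replicates only, the share was 44.9% on X and 37.3% on the autosomal arms. By clusters per Mb, X (48.1 and 45.9 in replicates 1 and 2) lay below 2R (49.3 and 48.4), while its share of clusters in runs lay above that of 2R in both.

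**Figure D3:**
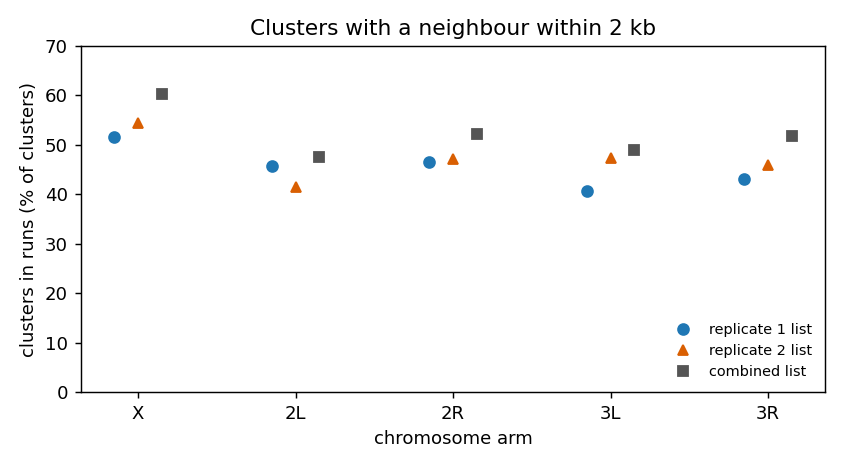
Share of clusters with a neighbour within 2 kb (percent of the clusters of an arm) for X and the 4 large autosomal arms; each point is 1 list. The X points, at 51.5%, 54.3% and 60.3% in replicate 1, replicate 2 and the combined list, lie above those of the same list on each other arm.

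Runs of X were mostly short, with a tail of long ones. There were 124 pairs, 55 runs of 3, 33 runs of 4 and 30 runs of 5 or more, and the median run spanned 12.2 kb. Runs of 5 or more held 14.6% of X clusters, against 5.47% of clusters on the autosomal arms; 30 such runs lay on X, and 43 on the 4 arms together. In percentage points the difference was smaller in the replicates, with 5.38% and 9.43% of X clusters in replicates 1 and 2, against 2.56% and 3.24% on the arms. With combined clusters found in both replicates only, 5 such runs lay on X and 6 on the arms, holding 3.03% and 0.90% of clusters. Clusters in longer runs had lower medians in the combined list. The median log2 enrichment of X clusters in the combined list was 0.85 alone, 0.80 in pairs, 0.76 in runs of 3 or 4 and 0.60 in runs of 5 or more. Clusters found in both replicates made up 72.2%, 71.0%, 67.3% and 60.0% of these classes. Among X clusters found in both replicates the medians were closer, from 0.98 in runs of 5 or more to 1.12 in pairs. In the replicates' own lists this order was not kept: in replicate 1 the medians over these classes were 1.10, 1.08, 1.01 and 1.13, the last of them for runs of 5 or more, and in replicate 2 they were 0.99, 0.99, 1.01 and 0.84.

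The runs with the most clusters differed in how the replicates saw them. The run with most clusters, 10 from 12126626 to 12155023, had no cluster in replicate 1 and 4 in replicate 2. The next, 9 clusters over 70.8 kb from 12587685 to 12658462, was also the longest by span; its cover was 88.2% by the combined list and 60.2% and 65.9% by replicates 1 and 2, and 7 of its 9 clusters were found in both. Another 9 clusters over 55.1 kb, from 13838472 to 13893534, were covered to 96.5%, 51.3% and 73.5% by the same lists. In these runs of 9 the strongest clusters had log2 enrichment of 1.69 and 1.85 and the weakest 0.24 in each, so strong and weak clusters stood side by side. A run of 7 clusters from 16465360 to 16498867 had 2 that were found in neither replicate, and another of 7 from 20338359 to 20364488 had 3. The remaining run of 7, from 18859614 to 18878485, ranked below these by its shorter span and had 4 in neither replicate and 2 in both.

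By span, the third longest run was 51.6 kb from 7519956 to 7571519, with 5 clusters and 99.0% cover in the combined list; the replicates saw 7 and 10 clusters there, covering 69.0% and 65.1%. The fourth, from 2155387 to 2203943, was covered to 94.2% in the combined list and to 88.5% and 86.1% in replicates 1 and 2, and the fifth lay from 1954366 to 1998921. Of the 30 runs of 5 or more, 4 had all their clusters in both replicates, and 2 had none in both: the run of 10 from 12126626 and a run of 5 from 18911582 to 18923180.

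Where both neighbours of a short gap were found in a replicate, they were mostly distinct clusters there too. The length of the gap in the replicate was not measured and may exceed 2 kb. Of the 478 gaps of at most 2 kb on X, 252 (52.7%) separated distinct clusters in replicate 1 and 267 (55.9%) in replicate 2. Few were bridged by a single replicate cluster, 4 in replicate 1 and 9 in replicate 2. At the remaining gaps a neighbour was missing: 1 of the pair at 162 gaps in replicate 1 and 154 in replicate 2, and both at 60 and 48. On the autosomal arms 59.1% and 66.1% of 1336 such gaps separated distinct clusters in replicates 1 and 2.

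X clusters were mostly a few kilobases wide, as on the other arms, and the wide ones had the higher scores. The median width on X was 2567 bp in replicate 1 and 2762 bp in replicate 2, against 2547 bp and 2695 bp on the autosomal arms, a difference of 43.5 ± 33.2 bp (SD, n = 2) in medians. By class, 99 combined X clusters were narrower than 1301 bp, the narrowest width in either replicate list, 462 were from that width to 2.5 kb, 330 were 2.5 to 5 kb and 194 were 5 to 10 kb. A further 85 measured 10 to 20 kb and 25 were wider. From the narrowest class to the widest, median log2 enrichment was 0.49, 0.49, 0.95, 1.27, 1.50 and 1.79. Across X clusters the Spearman correlation of width and log2 enrichment was 0.721, given with no p because both come from the same reads.

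Broad clusters took up a larger share of X than of the autosomal arms. Clusters of 10 kb or more numbered 110 on X, 9.21% of its clusters, against 285 or 6.55% on the arms; over all 5 the share was 7.12%. In the replicate lists they made up 5.84% and 8.26% of X clusters, against 4.08% and 5.59% on the arms. The difference of 2.22 ± 0.648 percentage points (SD, n = 2) exceeded its own spread. The shares themselves moved more between replicates, with an SD of 1.71 points on X and 1.06 on the arms. By this share of clusters X lay above each single arm of the same list in both replicates. In the combined list these 110 clusters held 34.0% of the covered length of X, against 27.3% on the arms. By length in the replicates, the shares were 22.9% and 29.3% on X, against 19.6% and 23.8% on the arms together and 24.7% and 28.1% on 3R, so in replicate 1 X lay below 3R. All 110 overlapped clusters of both replicates, though 64 were split into several clusters in replicate 1 and 47 in replicate 2. The 285 on the arms also all overlapped both, with 146 split in replicate 1 and 93 in replicate 2. Of the 110, 76 (69.1%) were part of runs, with 60.3% for all X clusters. On the arms the same shares were 56.5% and 50.3%, so there too broad clusters were more often in runs.

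The widest X cluster spanned 54.1 kb from 17348658 to 17402717 and stood alone, with 32072 bp and 61918 bp to its neighbours. Its log2 enrichment was 1.19, and it overlapped 4 clusters in replicate 1 and 2 in replicate 2, of which those sharing most bases with it were 43695 and 33043 bp wide. Next came 35.2 kb from 1954366 to 1989529 (1.94) and 35.0 kb from 12546774 to 12581753 (1.66), each in 3 clusters in replicate 1 and 2 in replicate 2. The cluster of 31.8 kb from 7524564 to 7556318 had a lower value, 0.90, and the most pieces, 4 and 6 in replicates 1 and 2. The fifth, 29.9 kb from 2171670 to 2201618 (1.95), was a single cluster of 29818 bp in replicate 1 and 29732 bp in replicate 2. Among these 5, width alone therefore did not tell whether a region was called as 1 cluster or several. Over the 824 X clusters found in both replicates, 129 were split in replicate 1 and 102 in replicate 2. The 110 of 10 kb or more made up 64 and 47 of these, so splits were more common among broad clusters. None of the 5 widest was among the 10 strongest.

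The 10 strongest X clusters were 2385 to 19966 bp wide, and 1 of them reached 10 kb. The highest, at 2210467 to 2212851, was 2385 bp wide, with a log2 enrichment of 4.52 in replicate 1, 3.53 in replicate 2 and 4.05 overall. It lay shortly past the 29.9 kb cluster just named, and stood alone. Those at 14962540 to 14971842 and 5320752 to 5328314 were wider, 9.30 and 7.56 kb, and stronger in replicate 2: 3.28 and 3.23 there, with 3.03 and 3.06 in replicate 1. The cluster at 3569715 to 3575824 went the other way, at 3.45 in replicate 1 and 2.73 in replicate 2. At 13222695 to 13228160 the values nearly coincided, at 2.69 in replicate 1 and 2.70 in replicate 2, although replicate 1 had 2 clusters there and the value is that of the larger overlap. The widest of the 10 measured 19966 bp at 5779902 to 5799867, with 3.06 and 2.67. The remaining 4, at 18960099 to 18963972, 6891501 to 6893930, 5410039 to 5413579 and 3633695 to 3640031, had combined values of 2.76 to 2.82. All 10 were found in both replicates.

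In the replicate lists, log2 enrichment of X clusters differed from that of autosomal clusters mainly at and below the median. The 10th percentile was 0.59 on X and 0.43 on the autosomal arms in replicate 1, and 0.54 and 0.39 in replicate 2, a difference of 0.16 ± 0.01 (SD, n = 2). At the median the difference was 0.13 ± 0.02, at the 75th percentile it was 0.06 ± 0.01, and at the 95th it was -0.10 ± 0.04, with X lower in each list. In the combined list the difference was 0.11 at the 10th percentile, 0.03 at the median and -0.14 at the 95th. There X differed at both ends and little at the median. Clusters with a log2 enrichment below 0.4, a level chosen after the values were seen, made up 1.85% of X clusters in replicate 1 and 2.43% in replicate 2, against 7.87% and 11.3% on the arms. In the combined list they made up 11.5% on X and 27.4% on the arms, which ran from 26.5% to 28.4%. The weakest enriched X cluster had 0.23 in replicate 1 and 0.22 in replicate 2, against 0.02 to 0.13 and 0.05 to 0.07 on the single arms. The weakest of the combined list had 0.01 on X, within the 0.01 to 0.02 of the single arms, while the 5th percentile was 0.32 on X and 0.20 on the arms. How the input entered the score is not stated, and the part of copy number or depth on X in this was not tested.

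**Figure D4:**
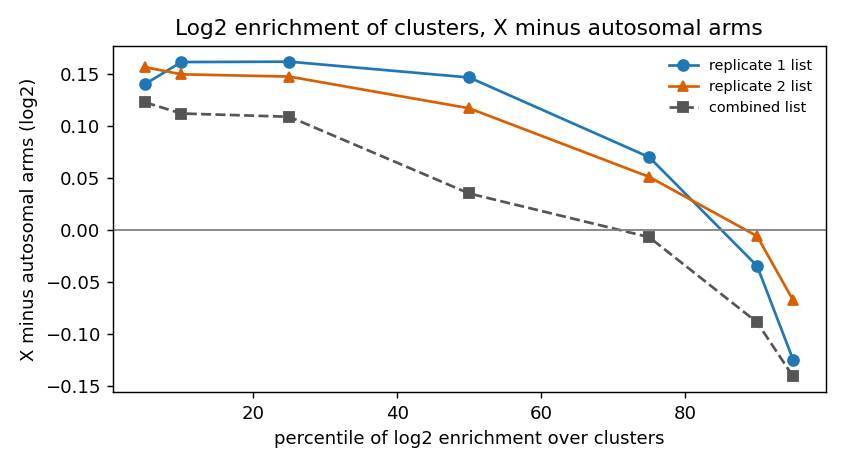
Difference in log2 enrichment, X minus autosomal arms, at the 5th, 10th, 25th, 50th, 75th, 90th and 95th percentiles of clusters, for each list. In replicates 1 and 2 the difference is near 0.15 up to the 25th percentile and below 0 at the 90th and 95th; the combined list lies below both replicates at each of these percentiles.

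A smaller share of X clusters than of autosomal clusters in the combined list was found in the replicates. Of the 1195, 824 overlapped clusters of both replicates by 1 bp or more (69.0%, exact interval 66.2 to 71.6%), against 3333 of 4351 on the autosomal arms (76.6%, 75.3 to 77.9%); over all sequences the share was 74.0%. Those in neither replicate numbered 195 on X (16.3%, 14.3 to 18.5%), against 444 on the arms (10.2%, 9.32 to 11.1%), where single arms ran from 9.13% to 11.3%; over all sequences the share was 12.1%. A further 90 X clusters were found in replicate 1 only and 86 in replicate 2 only. The intervals of X and the arms do not overlap, but clusters of 1 arm are not independent and the combined list stands for the same libraries, so these shares describe the lists. The 824 held 87.8% of the covered length of X.

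Support followed width and score. An overlap of 1 bp is met more easily by a wide cluster, so part of the rise with width is given by the rule. None of the 99 X clusters narrower than 1301 bp overlapped both replicates, and 88 (88.9%) overlapped neither. The autosomal arms were alike in this class: none of 262 overlapped both and 228 (87.0%) overlapped neither. On X the share found in both was 49.8% from 1301 bp to 2.5 kb and 88.8% at 2.5 to 5 kb. Of the 194 X clusters of 5 to 10 kb, 191 were found in both. On the autosomal arms the shares from 1301 bp to 2.5 kb and at 2.5 to 5 kb were 61.0% and 94.4%, so X was lower within these 2 width classes. With X clusters divided into 4 equal groups by log2 enrichment, 18.1% of the lowest, 60.9% of the next, 98.3% of the next and 98.7% of the highest were in both replicates. The median width of clusters in neither replicate was 1345 bp on X and 1289.5 bp on the autosomal arms, and their median log2 enrichment was 0.47 on X and 0.33 on the arms.

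A few unsupported X clusters nonetheless had high scores. The 5 highest were at 12276253 to 12277256 (2.33), 22213869 to 22214973 (1.63), 458784 to 459784 (1.45), 14716736 to 14718002 (1.38) and 21567121 to 21569303 (1.20). They were 1001 to 2183 bp wide, and 4 of them stood alone. Between the replicates themselves, 978 of 1079 replicate 1 clusters on X (90.6%, 88.7 to 92.3%) overlapped a replicate 2 cluster and 922 of 1029 replicate 2 clusters (89.6%, 87.6 to 91.4%) overlapped a replicate 1 cluster. Of those without a counterpart the highest were, in replicate 1, at 20127231 to 20128633 (1.08) and 5832065 to 5833483 (0.98), and in replicate 2, at 21413563 to 21415563 (1.40) and 4688040 to 4691525 (1.25). All 4 overlapped combined clusters, with values of 1.13, 0.43, 1.25 and 0.85 there. The first only met the edge of its combined cluster, 20118567 to 20127754, which was itself found in both replicates.

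Where a combined X cluster had 1 partner in each replicate, position and score agreed closely. Over the 662 such clusters that were also the ones sharing most bases with their partners, of 664 with 1 partner in each, the start differed between replicates by a median of 94 bp and the end by 75 bp, against 68 and 66 bp for 2854 on the autosomal arms. Between replicates, Pearson's r of log2 enrichment was 0.904 and Spearman's rho 0.877 over these X clusters, which come from 2 libraries. Both were higher on the autosomal arms, at 0.930 and 0.912. Replicate 2 minus replicate 1 averaged -0.14 ± 0.28 (SD over 662 clusters) on X and -0.14 ± 0.27 on the arms, so the offset between the libraries was of the same size on both.

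The lists differed most in 1 stretch near the middle of X, which was chosen after its values were seen. Between 12122026 and 12230113, 108 kb right after a 24.7 kb cluster, the combined list held 29 clusters, covering 49.5%. Replicate 1 had 3 clusters there, covering 4.14%, and replicate 2 had 5, covering 8.54%. Of the 29, none was found in both replicates, 3 were found in replicate 1 only, 4 in replicate 2 only and 22 in neither. Their log2 enrichment was low and even, from 0.45 to 0.68 with a median of 0.51, and their median width was 1478 bp. The run of 10 clusters named above lies within this stretch. The next gap after it was 46139 bp long.

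**Figure D5:**
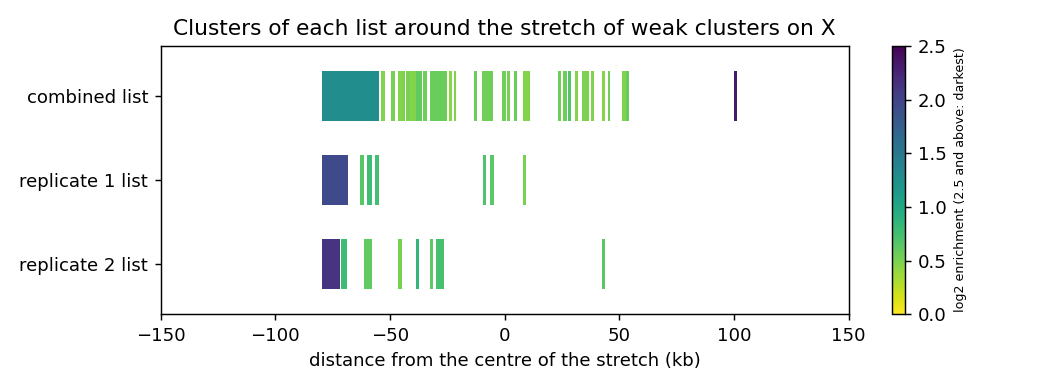
Clusters of each list around the stretch from 12122026 to 12230113, drawn as blocks against distance in kb from its centre and coloured by log2 enrichment. In the combined list 29 blocks, all of 0.45 to 0.68, follow a 24.7 kb cluster; replicates 1 and 2 have 3 and 5 clusters in the same place, and no combined cluster of the stretch is found in both.

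The 100 kb bin from 12100001 to 12200000, which takes in much of this stretch and most of the 24.7 kb cluster before it, found in both replicates, had a cover of 60.9% by the combined list and of 18.0% and 18.2% by replicates 1 and 2. The excess of the combined list over the mean of the replicates, 42.8 percentage points, was the highest of 1189 bins on X and the 4 arms. The next 3 in that order were also on X, from 18800001 (20.4 points), 13800001 (19.2 points) and 7500001 (19.0 points), and 11 of the 20 highest were X bins, which make up 224 of the 1189. The median excess was 3.30 points on X, and 1.61, 2.79, 1.75 and 2.07 points on 2L, 2R, 3L and 3R. Without the 500 kb bin from 12000001, 14.6% of X clusters were found in neither replicate and 70.7% in both, still lower in support than the autosomal arms, and 59.5% were in runs.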

How the data were processed

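Cluster lists of 2 ChIP libraries and of the whole replicate set were used; separate input values were not used here. The submitters' processing notes name Bowtie 0.12.7, and per the file headers the coordinates follow FlyBase release 5. For the cluster caller, its thresholds, the use of input and the joining of replicates, nothing is stated in the sources used here. Each deposited cluster has a score, taken here to be a log2 enrichment computed by the authors. Differences between repeated scores matched logarithms of ratios of whole numbers up to 14 more often in base 2 (237 of 26796 in replicate 1, within 1e-08) than in natural (0) or base 10 logarithms (3).

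Overlap means 1 bp or more. Gaps, runs (gaps up to 2 kb) and cluster-free stretches (50 kb or more, arm ends included) were computed within arms from enriched clusters, with cover over full sequence length. Values for 2 replicates are means ± SD; no test was run. Named regions were taken by fixed ranks: the 10 highest, 5 widest and 5 loneliest clusters, the 5 runs with most clusters (ties by span) and the 5 longest, the 8 longest stretches, the 4 densest and 4 sparsest 500 kb bins, and the highest unsupported ones. The regions, lists and settings were chosen with earlier results of these data known. Code was tested on simulated clusters, and Python 3.11.15, numpy 2.4.6, pandas 2.3.3 and scipy 1.17.1 were used.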

Additional observations from a re-analysis of the deposited data

How the results depend on the processing

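There were 45 alternatives over 13 results. Of these, 8 moved by no more than the spread between replicates (or, for support, stayed inside the interval), 36 moved and 1 reversed. After seeing the data, 8 of the 45 were chosen, all but 1 of them on clusters found in both replicates. The direction of many moves was fixed by the setting, so these counts do not measure robustness. Dropping clusters lowers the number per Mb, and other limits for gaps or stretches must change the shares in runs or empty stretches. With the upper 50% of combined clusters by score, X had 27.2 clusters per Mb, 17.8% cover and a median gap of 10145.5 bp. It then had 32.2% of clusters in runs, 55.7% of the arm in cluster-free stretches and 17.7% of clusters at 10 kb or more. In the upper 50% of each replicate list, X minus autosomal arms averaged 6.72 clusters per Mb, 3.95 points of cover and -10796 bp in gap. In runs it averaged 14.3 points and in empty stretches -7.16 points. Each list was cut at its median score over all sequences. Median log2 enrichment was higher on X than on the arms (1.09 against 0.94 in replicate 1, 0.99 against 0.87 in replicate 2). The cut thus kept a larger share of X clusters than of autosomal ones, and its part in these differences was not tested. With combined clusters at least as wide as the narrowest replicate cluster, X had 48.9 per Mb, a gap of 3944 bp, 56.4% in runs, 42.9% empty and 75.2% found in both replicates. Runs held 44.3% of X clusters with gaps up to 1 kb and 78.0% with gaps up to 5 kb, and stretches of at least 25 kb and 100 kb made up 55.1% and 22.8% of X. Support was 60.3% with 50% reciprocal overlap, and 76.2% to 76.5% when only 1 replicate had to overlap, a looser rule by construction. Against the nearest single arm, 2R, the difference in clusters per Mb reversed to -1.84, and those in cover, gap and runs came to 0.95 points, -783.5 bp and 6.12 points; the cause was not tested. In the combined list, X exceeded the arms by 8.26 clusters per Mb, 4.55 points of cover and 9.92 points in runs, with -3.46 points in empty stretches. With clusters found in both replicates, 44.9% of X clusters were in runs and the longest run held 5, and X minus the arms was 2.25 clusters per Mb, 3.44 points of cover, -2124 bp and -0.87 points empty. Leaving out a replicate gave 4.94 to 6.02 clusters per Mb, 2.84 to 2.95 points of cover, -1919.5 to -1510 bp, 7.64 to 8.62 points in runs and -1.26 to -1.02 points empty; with 2 replicates such a value lies within 1 SD by construction, so these are not in the count above. Correlations of cover by bin, which have no error, are not in it either. No paired analysis was possible because no result comes from a test between ChIP and input, which share the replicate numbers; X minus arms was taken within each library. Depth is unknown, so what it limits could not be read from the lists.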

Other observations

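The only X cluster named as depleted lay at 14864409 to 14866175 (1767 bp) with a log2 value of -0.0094, close to 0. It overlapped no cluster of either replicate, and the nearest enriched clusters of the combined list lay 15925 bp before it and 39699 bp after it.

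In the combined list, neighbouring X clusters differed less in log2 enrichment when close, except across the longest gaps. The median absolute difference was 0.43 for 321 neighbours under 1 kb apart, 0.46 for 157 neighbours 1 to 2 kb apart, 0.48 for 215 neighbours 2 to 5 kb apart, 0.51 for 280 neighbours 5 to 20 kb apart, 0.57 for 126 neighbours 20 to 50 kb apart and 0.47 for 95 neighbours 50 kb or more apart. These differences are across clusters of 1 list, so no error or test belongs to them. They were not computed in the replicate lists. They also include the 29 weak clusters of similar score between 12122026 and 12230113, of which 22 were found in neither replicate.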
